A study of Mus musculus with 8 samples.

Results

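Myc, Hras, Nras, Kit, Src, Pdgfra and Pdgfrb are 7 oncogenes whose promoters are known for G-quadruplex (G4) forming sequence, and their mRNA was followed in mouse embryonic fibroblasts (MEFs) exposed to RHPS4, a small molecule that binds G4. The members were taken by gene symbol from a list written with earlier results of these data known, and no measured value enters the rule. All 7 were among the 24460 genes of the count tables, and all 7 were among the 14296 genes with enough counts to be tested. A gene counted as differentially expressed (called) when its adjusted p was below 0.01 and it differed by more than 1.5-fold. By this measure 1 member fell, at 10 µM, where 1.14% of all tested genes were called lower. It was Pdgfrb, the receptor for PDGF-B, which went from 235 CPM (counts scaled to library size) at 0 µM to 154.9 CPM at 10 µM. No member was called higher in any comparison.

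A G-quadruplex is a fold of guanine-rich DNA or RNA in which 4 guanines pair in a plane and several such planes stack. Its usual sequence is a row of 4 short guanine runs. Such rows are common just before the start of genes, and that of the human MYC promoter is the best known of them, where ligands that hold the fold have been studied for their ability to lower transcription. The members act along the same growth factor route. Pdgfra, Pdgfrb and Kit are receptor tyrosine kinases at the cell surface, Src is a tyrosine kinase that acts next to such receptors, Hras and Nras are the small GTPases that pass their signal to the ERK kinases, and Myc is a transcription factor that responds to that signal.

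The study compared wild type MEFs grown in high-glucose medium with serum and exposed to 0 µM (n = 3), 2 µM (n = 3) or 10 µM (n = 2) RHPS4. The labels give no difference between the groups other than this dose. The study describes a day of exposure in other experiments at these doses, while the exposure time of each library, the strain and the age of the embryos are not given in the sources used here. Nor do the labels say whether the replicates came from separate cultures, so p-values measure only the spread between these libraries, which may be technical. Total RNA without nuclear ribosomal RNA was sequenced, with 10455965 to 26688121 counts per library, and 3 counts made up 0.119 to 0.311 CPM. Replicate 1 of 0 µM, the library with the fewest counts, stood farthest from its replicates, with a chi-square over degrees of freedom of 15.4 and 20.2 against replicates 2 and 3, where other pairs within a dose gave 3.23 to 10.6. Without it the 1 call among the members against 0 µM was kept, Hras was also called between 10 and 2 µM, and Myc and Kit at 10 µM changed sign. All libraries carried fibroblast mRNA, with the 10 fibroblast markers summing to between 12120 and 14080 CPM. Most of that sum came from Fn1, Vim, Col1a2, S100a4 and Col1a1. Thy1, Lum and Fap of the same list were low, at dose means of at most 7.25, 0.996 and 0.687 CPM. The markers of other cells summed to at most 4.34 CPM for epithelium, 5.47 for endothelium, 1.73 for muscle and 24.2 for leukocytes, while the pericyte and smooth muscle list reached 310 CPM through Acta2 and Cspg4.

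The promoter sequences are shown because the members were chosen as genes known for promoter G4, and they show where the guanine runs lie. RefSeq windows of GRCm38.p6, from 250 bases before to 50 bases after the start of the gene, were at hand for 5 of the 7 members, Hras, Nras, Kit, Src and Pdgfra. None was at hand for Myc and Pdgfrb, so their promoters were not searched. The 250 bases before the start are printed 5′ to 3′ on the strand of the gene, for Hras at chr7:141194005-141194254 on the minus strand, and on the plus strand for Nras at chr3:103058035-103058284, Kit at chr5:75574737-75574986, Src at chr2:157424043-157424292 and Pdgfra at chr5:75152001-75152250. Capitals mark a match to 4 runs of GGG or more separated by 1 to 7 bases of any kind. Where the capitals are rich in C, the match lies on the other strand.
Hras: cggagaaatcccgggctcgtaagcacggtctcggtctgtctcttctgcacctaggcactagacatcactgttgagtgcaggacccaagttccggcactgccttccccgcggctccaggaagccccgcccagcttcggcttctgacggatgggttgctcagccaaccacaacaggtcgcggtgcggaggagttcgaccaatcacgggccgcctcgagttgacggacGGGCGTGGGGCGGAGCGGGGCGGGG
Nras: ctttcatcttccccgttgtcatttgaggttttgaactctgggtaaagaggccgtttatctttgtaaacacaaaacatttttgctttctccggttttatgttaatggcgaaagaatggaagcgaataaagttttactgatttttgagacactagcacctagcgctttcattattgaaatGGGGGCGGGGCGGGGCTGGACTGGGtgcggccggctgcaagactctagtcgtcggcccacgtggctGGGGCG
Kit: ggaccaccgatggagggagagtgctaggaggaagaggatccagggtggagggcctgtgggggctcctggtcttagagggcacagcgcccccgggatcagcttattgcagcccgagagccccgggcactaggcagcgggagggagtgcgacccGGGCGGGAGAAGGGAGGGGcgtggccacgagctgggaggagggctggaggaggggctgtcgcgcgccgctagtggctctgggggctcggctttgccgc
Src: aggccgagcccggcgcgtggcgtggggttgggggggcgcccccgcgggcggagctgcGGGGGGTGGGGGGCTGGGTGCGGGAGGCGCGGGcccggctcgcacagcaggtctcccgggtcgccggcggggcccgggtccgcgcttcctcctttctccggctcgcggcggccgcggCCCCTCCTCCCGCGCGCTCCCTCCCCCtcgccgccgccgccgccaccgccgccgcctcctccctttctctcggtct
Pdgfra: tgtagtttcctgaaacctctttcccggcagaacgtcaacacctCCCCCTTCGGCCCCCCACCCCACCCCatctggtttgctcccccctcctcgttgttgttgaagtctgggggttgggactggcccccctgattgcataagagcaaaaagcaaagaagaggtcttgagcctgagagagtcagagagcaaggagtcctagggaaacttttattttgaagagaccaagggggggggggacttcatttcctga

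All 5 members held a match, as did 20.4% of 27025 genes and 18.6% of 32851 windows. The members were chosen as genes known for promoter G4, so a match in them was likely from the outset and is no result. With spacers of up to 12 bases the share over all genes was 30.8%, and with runs of GG in place of GGG it was 78.7%, and all 5 members matched both. In Hras the match of 35 bases began 25 bases before the start and ran over it. Nras held a match of 25 bases from 72 to 48 bases before the start and another that began 6 bases before it and ran over it. The match of Kit, 19 bases long, lay 98 to 80 bases before the start. A second window of Kit, which overlaps the printed one, holds the same match. Src held a match of 33 bases with 5 runs, 193 to 161 bases before the start, and another on the antisense strand 76 to 50 bases before it. The match of Pdgfra also lay on the antisense strand, 207 to 182 bases before the start. Hras, Kit and Src had windows with 69%, 69% and 82.3% G and C, against a median of 52.7% over all genes, while Nras with 52.3% and Pdgfra with 51% had not. A match describes the letters only, and no fold was measured here.

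**Figure D1:**
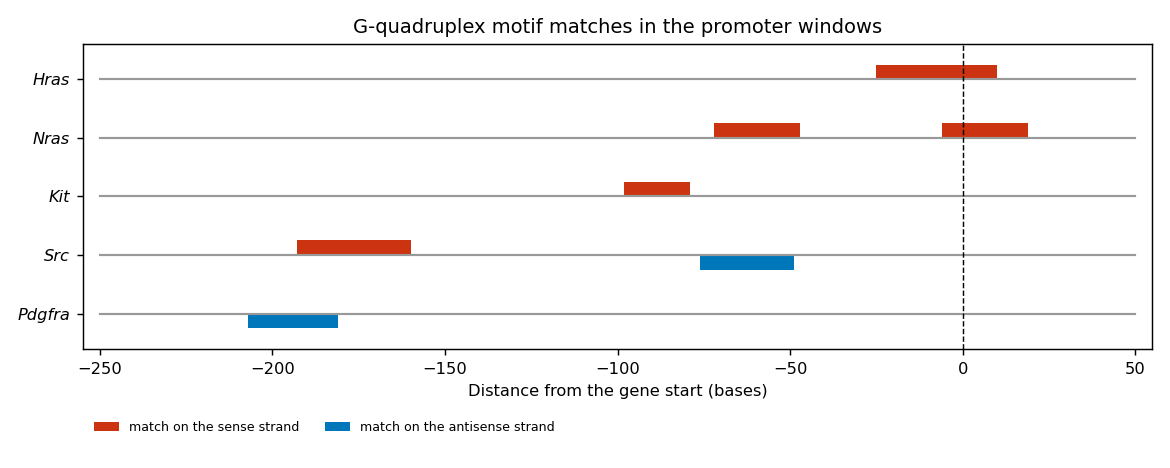
Matches to the G-quadruplex motif in the promoter windows of the 5 members with a RefSeq window. The horizontal axis is the distance from the gene start in bases (dashed line), red bars above a line are matches on the sense strand and blue bars below it are on the antisense strand. Nras and Src hold 2 matches each. The match of Hras and the match of Nras that lies nearer the start run over it.

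The windows with and without a match were also set against the expression change of all tested genes. At 2 µM the 3322 tested genes with a match had a median log2 fold change of -0.04 and 57.6% of them lay below 0, while the 7366 genes without one had a median of 0.0024 and 49.6% below 0. At 10 µM the medians were -0.03 and 0.03, with 53.5% and 45.8% below 0. The share called lower at 10 µM was 1.23% with a match and 0.91% without, and the share called higher was 1.78% and 2.06%. Of the tested genes that had no window, 1.52% were called lower at 10 µM, more than of those with a match. Between 10 and 2 µM the order was the other way round, with 1.23% called lower with a match and 1.71% without, and 4.03% and 3.96% called higher. Correction of the counts for GC content left medians of -0.03 and 0.01 at 2 µM and of -0.04 and 0.01 at 10 µM. These differences were described and not tested. The central 95% of all tested genes ran from -0.69 to 0.46 at 2 µM and from -0.64 to 0.93 at 10 µM.

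Across the 7 members, edgeR called 0 at 2 µM, where it called 0.497% of all tested genes (0.378% lower), with 3 members at an unadjusted p under 0.05 and 0 called by DESeq2. At 10 µM it called 1, lower, where 1.14% of all tested genes were called lower and 3.09% in either direction. There 3 members had an unadjusted p under 0.05, and DESeq2 also called 1. Between 10 and 2 µM it called 0, where it called 5.51% of all tested genes (3.92% higher and 1.59% lower). In this comparison 5 members had an unadjusted p under 0.05 and 1, Hras, was called by DESeq2. Of all 14296 tested genes, 3046, 4205 and 5223 had an unadjusted p under 0.05 at 2 µM, at 10 µM and between both. At 2 µM the groups did not overlap for Hras and Nras, which were higher, and for Pdgfra and Pdgfrb, which were lower, and the same held for 12.7% and 12.9% of all tested genes. At 10 µM Hras, Nras, Src and Pdgfrb lay below all untreated libraries, as did 20% of all tested genes, and none of the 7 lay above them, as did 22.9%. Between 10 and 2 µM the same 4 lay lower, as did 24.9%, and Pdgfra lay higher, as did 27%. The comparisons share libraries and are not independent of each other. The median log2 fold change of the members was -0.06, -0.11 and -0.22 at 2 µM, at 10 µM and between both, against -0.01, 0.02 and 0.03 over all tested genes, and every member lay inside the central 95% of these in each comparison. Scaled by total counts only, the member median at 10 µM was 0.105. That scaling called 914 genes in all (846 higher and 68 lower) in place of 442 (279 higher and 163 lower). Relative to the median of all genes the member median was -0.13 under both scalings. A change of scaling shifts all genes of a comparison by nearly the same amount. Values relative to that median can therefore hardly change, and their agreement is no support.

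**Figure D2:**
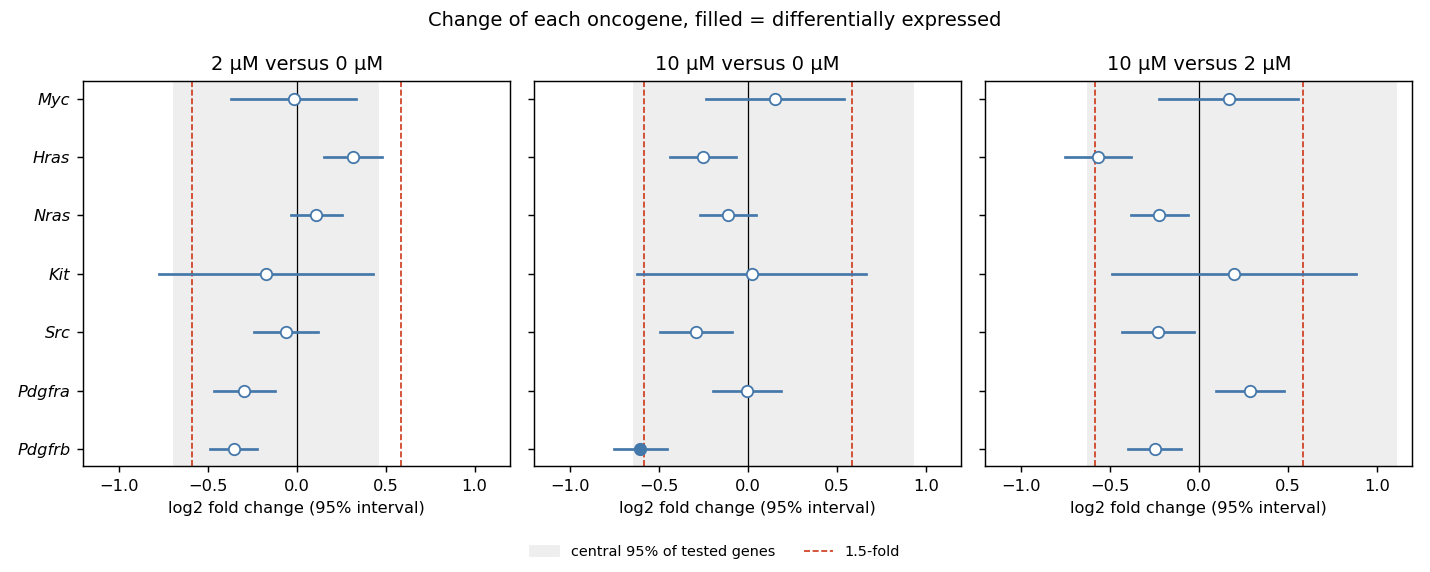
Log2 fold change of each member with its 95% interval in the 3 comparisons. The grey band holds the central 95% of tested genes, dashed lines mark a 1.5-fold change, and the filled point was differentially expressed. Every point lies in the grey band. Pdgfrb at 10 µM against 0 µM, at -0.60, is the only filled point, and Hras between 10 and 2 µM, at -0.57, lies just short of the dashed line.

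Levels of the members in untreated MEFs differed widely when compared per kilobase of exon. Pdgfrb was the most abundant at 42.9 ± 0.52 CPM per kb (SD, n = 3), followed by Nras at 29.0 ± 1.33, Src at 23.3 ± 0.549 and Pdgfra at 20.4 ± 1.05. Myc followed at 12.4 ± 2.51 CPM per kb and Hras at 9.76 ± 0.416. The gap between Myc and Hras was smaller than the sum of their SDs, whereas the other neighbours in this order lay farther apart than that. Kit, at 0.105 ± 0.0211 CPM per kb, was far below the rest, with 7 to 25 counts per library. At 10 µM Pdgfrb stood at 28.3 ± 0.119 CPM per kb (SD, n = 2), next to Nras at 26.8 ± 0.302.

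**Figure D3:**
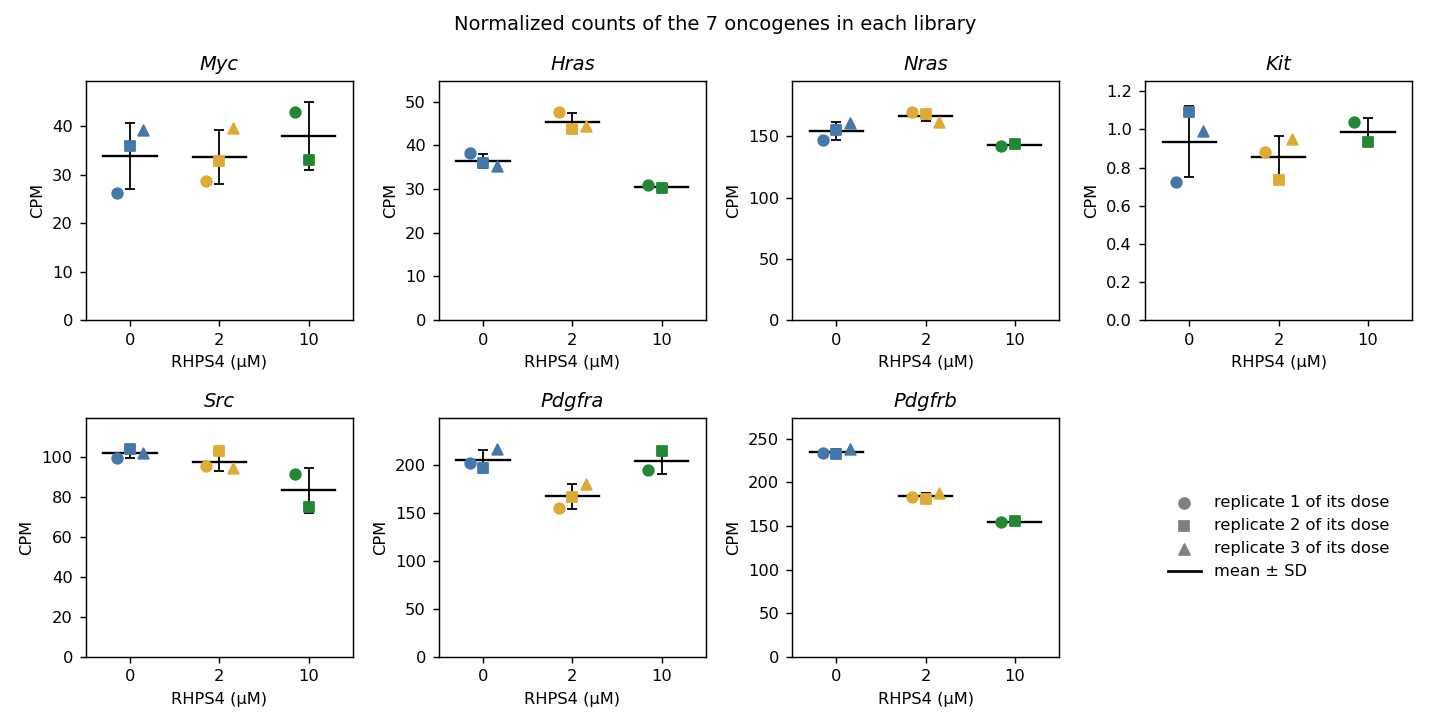
Normalized counts (CPM, vertical axis from 0) of the 7 members in each library against the RHPS4 dose in µM. Points are libraries, with the replicate number as the symbol, and lines are mean ± SD. Pdgfrb steps down from 233 to 238.5 CPM at 0 µM to 181 to 188 at 2 µM and 154.5 to 155.4 at 10 µM, whereas the Myc libraries of all doses overlap.

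Pdgfrb, whose promoter could not be searched for the motif, carried the clearest change. Its libraries gave 234, 233 and 238.5 CPM at 0 µM, 183.5, 181 and 188 CPM at 2 µM, and 154.5 and 155.4 CPM at 10 µM. The doses did not overlap, and the libraries within a dose lay close together. At 10 µM Pdgfrb fell by 0.60 on the log2 scale (standard error, SE, 0.0684, 95% interval -0.75 to -0.45), a level 1.52-fold lower, with an adjusted p of 0.000248 in edgeR's quasi-likelihood test. Of all tested genes, 2.96% had a lower log2 fold change. The value is just past the 1.5-fold threshold, and when libraries were scaled by their total counts only it was -0.39 (adjusted p = 0.00205) and not called. That scaling moved the median of all genes at 10 µM from 0.016 to 0.23 on the log2 scale. Relative to the median Pdgfrb was at -0.62 under both, which follows from the near-equal shift of all genes and is no check of the fall. At 2 µM the difference was -0.35 (SE 0.0602, 95% interval -0.49 to -0.22, adjusted p = 0.0115), which misses the threshold of 0.01. Between 2 and 10 µM it was -0.25 (SE 0.068, adjusted p = 0.0223).

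PDGFRβ is carried by fibroblasts and, in tissue, by pericytes and smooth muscle. The summed fibroblast markers ran from 13660 to 14080 CPM at 0 µM, from 12480 to 12710 at 2 µM, and from 12120 to 12460 at 10 µM. The pericyte and smooth muscle markers ran from 220.4 to 230.5 CPM at 0 µM, from 291 to 310 at 2 µM, and from 224 to 234 at 10 µM. Of the 5 genes in that list, Acta2 averaged 154.2, 227.5 and 153.7 CPM at 0, 2 and 10 µM, and Cspg4 69.4, 69.4 and 72.2 CPM. Rgs5, at 0 in both 10 µM libraries, had at most 6 counts in any library, too few to read a change from. The part of these markers in the level of Pdgfrb was not tested, and in bulk RNA fewer cells of a kind cannot be told apart from less RNA per cell.

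Pdgfra, the receptor that also binds PDGF-A, had another order of doses. Its libraries gave 202, 196 and 216.5 CPM at 0 µM, 154.5, 167 and 180 CPM at 2 µM, and 194 and 214 CPM at 10 µM. The 2 µM libraries lay below all others, whereas those at 10 µM overlapped the untreated ones. At 2 µM the log2 fold change was -0.29 (SE 0.0783, 95% interval -0.47 to -0.12, adjusted p = 0.0595), and at 10 µM it was -0.0053 (95% interval -0.20 to 0.19, adjusted p = 0.975). Between 2 and 10 µM it was 0.29 (SE 0.087, adjusted p = 0.0336). None of these met the threshold.

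The ratio of both PDGF receptors within a library does not depend on how libraries are scaled. The log2 ratio of Pdgfrb to Pdgfra counts was 0.21, 0.25 and 0.14 in the 0 µM libraries, 0.25, 0.12 and 0.061 at 2 µM, and -0.33 and -0.46 at 10 µM. Pdgfrb counts were the higher in all libraries at 0 and 2 µM and the lower in both at 10 µM. The mean differed by -0.60 from 0 to 10 µM, against a pooled SD of 0.070, with p = 0.2 in a two-sided exact permutation test, which is the smallest p that 3 libraries against 2 allow. From 0 to 2 µM it differed by -0.057 (pooled SD 0.0783, exact permutation p = 0.4, where 0.1 is the smallest possible). Adjusted over the 4 ratio tests, these p-values were 0.267 at 10 µM and 0.4 at 2 µM.

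**Figure D4:**
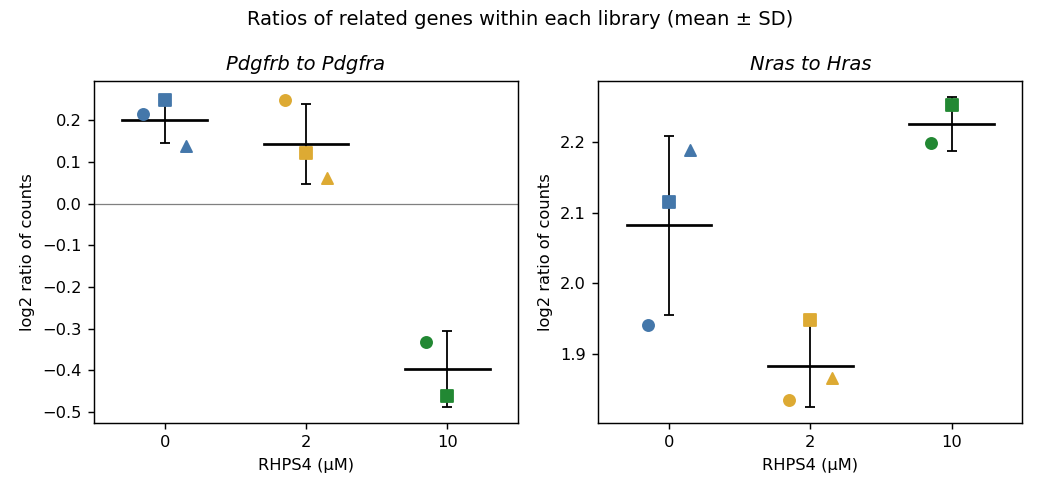
The log2 ratio of counts of Pdgfrb to Pdgfra (left) and of Nras to Hras (right) within each library, against the RHPS4 dose in µM. Points are libraries and lines are mean ± SD, and the axes do not start at 0. The ratio of the PDGF receptors is below 0 in both 10 µM libraries and above 0 in the other 6, and that of the Ras genes is lowest at 2 µM.

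Kit, the receptor for stem cell factor, was hardly expressed. It had 0.727, 1.09 and 0.992 CPM at 0 µM, 0.88, 0.734 and 0.951 CPM at 2 µM, and 1.04 and 0.935 CPM at 10 µM. These levels rest on 7 to 25 counts per library, and all groups overlapped. The log2 fold change was -0.17 at 2 µM (95% interval -0.77 to 0.43, adjusted p = 0.776) and 0.021 at 10 µM (95% interval -0.62 to 0.66, adjusted p = 0.983). At this depth a 1.5-fold change of Kit in either direction lies within the interval at 10 µM and could not have been told from none. Mast cells and melanocytes are known to carry Kit, and the 4 mast cell markers summed to between 0.208 and 0.834 CPM while those of melanocytes, mostly Mitf, summed to between 12.3 and 18.2 CPM. Their part in the level of Kit was not tested. Kitl, the gene for stem cell factor, was well expressed, at 90.05 ± 5.13 CPM at 0 µM, 92.2 ± 5.18 at 2 µM and 96.9 ± 12.5 at 10 µM, and did not meet the threshold (adjusted p of 0.843 and 0.492 against 0 µM).

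Of the PDGF ligands, 2 of 4 could be tested. Pdgfa, whose homodimer acts on Pdgfra, had 18.0 ± 0.0238 CPM at 0 µM, 22.7 ± 0.802 at 2 µM and 18.3 ± 1.10 at 10 µM. Its 2 µM libraries lay above all others, with a log2 fold change of 0.34 at 2 µM (SE 0.0817, adjusted p = 0.0449) that missed the threshold. Pdgfc stood at 18.5, 16.4 and 15.9 CPM over the doses (adjusted p of 0.467 and 0.34 against 0 µM). Pdgfb and Pdgfd, at means of at most 0.508 and 0.377 CPM, were too low to be tested.

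Src, the founding member of its kinase family, had 99.3, 104 and 102 CPM at 0 µM, 95.4, 103 and 94.6 CPM at 2 µM, and 91.4 and 75.2 CPM at 10 µM. The 2 µM libraries overlapped the untreated ones and both 10 µM libraries lay below all others, with a wide gap between them. The log2 fold change was -0.06 at 2 µM (95% interval -0.24 to 0.12, adjusted p = 0.721) and -0.29 at 10 µM (SE 0.0917, 95% interval -0.49 to -0.088, adjusted p = 0.0583), which did not meet the threshold. It was -0.47 without replicate 1 and -0.18 without replicate 2 of 10 µM. With total counts only it was -0.074 (edgeR adjusted p = 0.575).

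Among the other Src family kinases and their regulators, 12 of 14 were tested. At 2 µM 0 of them were called by edgeR, with 0 at an unadjusted p under 0.05 (3046 of all 14296 tested genes) and 0 called by DESeq2. Over all tested genes 0.497%, 3.09% and 5.51% were called at 2 µM, at 10 µM and between both. At the shares of 2 and 10 µM, 0 or 1 called of 12 is no result about these genes. At 10 µM Lck rose, a kinase best known from T cells, from 2.20 ± 0.381 CPM to 4.92 ± 0.476, by 1.19 on the log2 scale (SE 0.22, adjusted p = 0.0052). It rested on 16 to 75 counts per library. Against 2 µM, Lck and Fyn rose and Bcar1, an adaptor that Src phosphorylates, fell. The call of Bcar1 was lost with total counts as the only scaling, and that of Fyn with DESeq2. Fyn, a kinase of the same family that fibroblasts also use, stood at 32.4 CPM at 0 µM, 29.5 at 2 µM and 44.9 at 10 µM, and Bcar1 at 99.2, 107 and 70.4 CPM. Yes1 had 64.5, 70.7 and 75.2 CPM at the 3 doses (adjusted p = 0.0654 at 10 µM), and Csk, which holds Src inactive, had 72.9, 73.45 and 59.2 CPM (adjusted p = 0.0428 at 10 µM).

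With the main scaling Hras was higher at 2 µM and lower at 10 µM, without a call against 0 µM. Its libraries gave 38.2, 35.9 and 35.25 CPM at 0 µM, 47.6, 43.7 and 44.5 CPM at 2 µM, and 30.9 and 30.2 CPM at 10 µM. The 3 doses did not overlap, with 2 µM the highest and 10 µM the lowest. Against 0 µM the log2 fold change was 0.32 at 2 µM (SE 0.0745, 95% interval 0.15 to 0.48, adjusted p = 0.0405) and -0.25 at 10 µM (SE 0.0847, 95% interval -0.44 to -0.064, adjusted p = 0.0734), and neither met the threshold. Between 2 and 10 µM it was -0.57 (SE 0.0851, 95% interval -0.75 to -0.38, adjusted p = 0.00107), which is 1.48-fold lower and so passed the p threshold but fell short of 1.5-fold. DESeq2, in which the same difference was -0.61 (adjusted p = 1.95e-05), called it. With total counts only, Hras at 10 µM against 0 µM was at -0.034 (edgeR adjusted p = 0.775).

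Nras, which encodes a closely related GTPase, followed the same order with smaller steps. Its libraries gave 147, 156 and 161 CPM at 0 µM, 169.8, 169 and 162 CPM at 2 µM, and 142 and 144 CPM at 10 µM. No 2 doses overlapped, although the highest untreated library lay next to the lowest 2 µM library. The log2 fold change was 0.11 at 2 µM (SE 0.0648, 95% interval -0.031 to 0.25, adjusted p = 0.349), -0.11 at 10 µM (SE 0.0727, 95% interval -0.27 to 0.048, adjusted p = 0.34) and -0.22 between 2 and 10 µM (SE 0.073, adjusted p = 0.0474). None met the threshold, and both intervals against 0 µM exclude a 1.5-fold change. With total counts only the value at 10 µM was 0.105, so its sign depended on the scaling. Relative to the median of all genes it was -0.13 under both, as the near-equal shift of all genes makes it.

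The log2 ratio of Nras to Hras counts was 1.94, 2.12 and 2.19 in the untreated libraries, 1.83, 1.95 and 1.87 at 2 µM, and 2.20 and 2.25 at 10 µM. At 2 µM the mean differed from that at 0 µM by -0.20 (pooled SD 0.0994, exact permutation p = 0.2), with overlap. At 10 µM the difference was 0.14 (pooled SD 0.106, exact permutation p = 0.2, the smallest possible). Both had an adjusted p of 0.267 over the 4 ratio tests.

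Of the 15 tested genes for Ras proteins, their exchange factors and GTPase activators, edgeR called 0 in each comparison, with 3, 5 and 4 at an unadjusted p under 0.05 at 2 µM, at 10 µM and between both, and DESeq2 called 0. Over all tested genes the shares called were 0.497%, 3.09% and 5.51%, at which few or no calls among 15 genes are no result about them. An unadjusted p under 0.05 was found for 3046, 4205 and 5223 of all 14296 tested genes. The median log2 fold changes of the 15 Ras genes were -0.10, -0.22 and 0.05 in that order, with -0.24 at 10 µM relative to all genes.

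Further down the pathway, 5 of 20 ERK pathway genes fell at 10 µM and 0 rose, where 1.14% of all tested genes were called lower and 1.95% higher. They were genes that ERK signaling is known to induce, from a list written with earlier results of these data known. Other targets of the pathway in this list were not called at 10 µM. Egr1, Spry1, Spry2, Spry4, Dusp4 and Phlda1 had edgeR adjusted p of 0.411, 0.835, 0.526, 0.316, 0.777 and 0.134. Dusp5 and Etv5 had 0.0221 and 0.0349. Fosl1, an AP-1 subunit, had 67.99, 73.2 and 74.5 CPM at 0 µM, 78.8, 72.15 and 75.3 CPM at 2 µM, and 36.9 and 25.7 CPM at 10 µM, so that only the 10 µM libraries stood apart. At 10 µM it fell by 1.197 on the log2 scale (SE 0.129), with an adjusted p of 0.00017. Ccnd1, the gene for cyclin D1, fell from 420.2 ± 4.00 to 270.5 ± 3.43 CPM (log2 fold change -0.64, adjusted p = 0.000237). Dusp6, an ERK phosphatase, and Etv4, an ETS factor, had log2 fold changes of -0.63 (adjusted p = 0.000601) and -0.61 (adjusted p = 0.00081). Fos, also an AP-1 subunit, was the only gene of this list called at 2 µM, where it fell from 8.49 ± 0.514 to 2.62 ± 0.871 CPM (log2 fold change -1.65, adjusted p = 0.00218), and it fell to 3.71 ± 0.972 CPM at 10 µM (-1.18, adjusted p = 0.00489). The median of the 20 genes was 0.02 at 2 µM and -0.25 at 10 µM. Against 2 µM, Ccnd1, Dusp5, Dusp6, Etv4 and Fosl1 fell at 10 µM, 5 of 20, where 1.59% of all tested genes were called lower and 3.92% higher. With total counts as the only scaling Dusp5, Dusp6 and Etv4 were no longer called in that comparison. Under the same scaling, Ccnd1, Dusp6 and Etv4 were no longer called at 10 µM against 0 µM, and the list median was -0.033. Relative to all genes the list median was -0.26 under both scalings, which the near-equal shift of all genes fixes. Fos lost its call at 2 µM without replicate 2 or 3 of 0 µM or replicate 1 or 2 of 2 µM, and its call at 10 µM without replicate 2 or 3 of 0 µM or either 10 µM library.

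Myc, the transcription factor at the end of this route, was not called at either dose. Its libraries gave 26.2, 36.0 and 39.3 CPM at 0 µM, 28.65, 32.85 and 39.65 CPM at 2 µM, and 42.9 and 33.0 CPM at 10 µM. The 3 doses overlapped throughout, and replicates of 1 dose differed by more than the means of the doses. The log2 fold change was -0.015 at 2 µM (SE 0.16, 95% interval -0.37 to 0.34, adjusted p = 0.968) and 0.15 at 10 µM (SE 0.176, 95% interval -0.23 to 0.54, adjusted p = 0.608). Both intervals exclude a 1.5-fold change in either direction, and the sign at 10 µM rested on single libraries, since it was -0.084 without replicate 1 and 0.30 without replicate 2 of 10 µM, and -0.0084 without replicate 1 of 0 µM.

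Myc acts as a dimer with Max, in competition with the Mxd proteins, and 12 of 12 genes of this network were tested. Calls among them are to be read against 0.497%, 3.09% and 5.51% of all tested genes called at 2 µM, at 10 µM and between both. Max itself had 21.5, 22.7 and 16.2 CPM at 0, 2 and 10 µM (adjusted p of 0.878 and 0.167 against 0 µM). Mycn, the neural relative of Myc, had 2.60, 2.53 and 2.58 CPM at 0 µM, 2.64, 2.53 and 3.51 CPM at 2 µM, and 0.672 and 0.935 CPM at 10 µM, on 11 to 65 counts per library. At 10 µM it fell by 1.68 on the log2 scale (SE 0.27), with an adjusted p of 0.00249. Mxd1 rose at 10 µM, from 11.2 ± 0.721 to 17.1 ± 0.734 CPM (log2 fold change 0.60, adjusted p = 0.0038). Mxi1 fell at 2 µM, from 41.2 ± 2.11 to 26.6 ± 0.439 CPM (log2 fold change -0.63, adjusted p = 0.00344), and stood at 41.0 ± 4.74 CPM at 10 µM. Mxd1, Mxd4 and Mxi1, all antagonists of Myc, were higher at 10 µM than at 2 µM, by 1.18, 0.65 and 0.62 on the log2 scale. DESeq2 did not call Mxi1 in this comparison, nor Mxd1 at 10 µM against 0 µM. Against 0 µM, Mxd1 and Mxd4 were at -0.58 and -0.48 at 2 µM (edgeR adjusted p of 0.0152 and 0.0122, not called). Mxd4 was at 0.17 at 10 µM (adjusted p = 0.235), and so near its untreated level, like Mxi1. Mxd3 went the other way between 10 and 2 µM, at -0.24 (adjusted p = 0.121). The calls of Mycn, Mxd1 and also Lck at 10 µM against 0 µM were lost when replicate 2 or 3 of 0 µM or either 10 µM library was left out. That of Mxd1 was also lost without replicate 1 of 0 µM or replicate 2 or 3 of 2 µM, and that of Mxi1 at 2 µM without any 1 of the 0 or 2 µM libraries.

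Among 22 direct targets of Myc, 0 were called at 2 µM by edgeR or DESeq2, where edgeR called 0.497% of all tested genes. Of these targets 12 had an unadjusted p under 0.05, as did 3046 of all 14296 tested genes. The median log2 fold change of the 22 was 0.25. At 10 µM the median was -0.15 (0.071 with total counts only). Relative to all genes it was -0.16 under both scalings, which the near-equal shift of all genes fixes. By edgeR Shmt2 rose and Tfrc fell at 10 µM. Of all tested genes, 1.95% were called higher and 1.14% lower at this dose. DESeq2 called 4 of the 22, with Ldha and Srm lower besides Tfrc, and 502 of all 14296 tested genes. Tfrc, the transferrin receptor, went from 313 ± 22.5 CPM at 0 µM to 417 ± 5.06 at 2 µM and 161.5 ± 7.02 at 10 µM (log2 fold change 0.41 with an adjusted p of 0.0122 at 2 µM, and -0.96 with an adjusted p of 3.31e-05 at 10 µM). Shmt2, the mitochondrial serine hydroxymethyltransferase, went from 202.5 ± 24.7 to 352 ± 25.2 CPM at 10 µM (log2 fold change 0.80, adjusted p = 0.000383). Against 2 µM, 3.92% of all tested genes were called higher and 1.59% lower at 10 µM. In that comparison Nolc1, Nop56, Srm and Tfrc fell by 0.59, 0.73, 0.92 and 1.37 on the log2 scale. Shmt2 rose by 0.59 (adjusted p = 0.00163), and the median of the 22 genes was -0.40. Nolc1 and Srm lost these calls with total counts only, and Shmt2, just past 1.5-fold, with RLE scaling and with DESeq2. DESeq2 called 7 of the 22 between 10 and 2 µM, all lower, and 814 of all 14296 tested genes. They were Nolc1, Nop56, Srm and Tfrc, and also Ldha, Nop58 and Rrs1. Nolc1 and Nop56 act in the nucleolus and Srm makes spermidine. Of the 17 partner and target genes called between 10 and 2 µM, 8 kept the call with any 1 library left out, namely Ccnd1, Dusp6, Etv4, Fosl1, Mxd1, Mxd4, Nop56 and Tfrc.

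**Figure D5:**
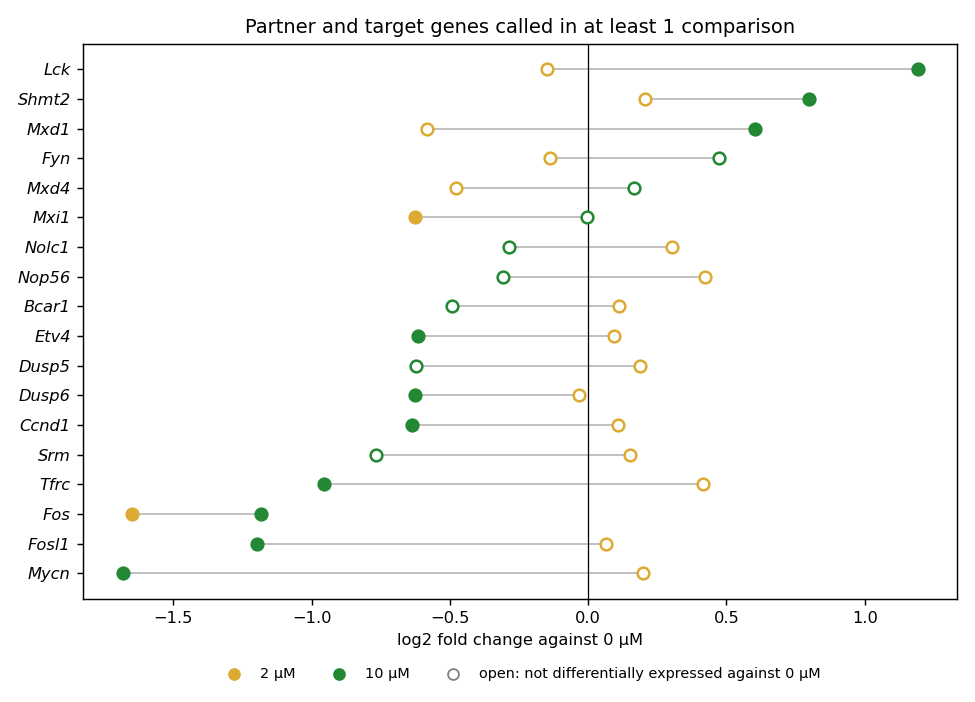
Log2 fold change against 0 µM of the 18 partner and target genes that were differentially expressed in at least 1 of the 3 comparisons. Yellow points are 2 µM, green points are 10 µM, filled points were differentially expressed against 0 µM and open points were not. Fosl1, Tfrc and Mycn lie to the right of 0 at 2 µM and between -0.96 and -1.68 at 10 µM, and Fos is to the left at both.

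Of 8 other genes described with G4 promoters, edgeR and DESeq2 called 0 in each comparison. An unadjusted p under 0.05 was found for 2, 1 and 1 of them at 2 µM, at 10 µM and between both. The same held for 3046, 4205 and 5223 of all 14296 tested genes. At 0.497%, 3.09% and 5.51% called over all tested genes, 0 of 8 is no result about these genes. Vegfa, the vascular growth factor, came closest. It had 102, 94.6 and 104 CPM at 0 µM, 71.8, 69.2 and 71.8 CPM at 2 µM, and 104 and 102 CPM at 10 µM. The 2 µM libraries lay well below all others, with a log2 fold change of -0.50 (SE 0.0667, adjusted p = 0.0031) that passed the p threshold and not the 1.5-fold threshold. Between 10 and 2 µM it was 0.54 (SE 0.0737, adjusted p = 0.000615), 1.45-fold higher and again short of 1.5-fold, and it was called with total counts only. Hif1a, the hypoxia factor, stood at 214.5 ± 13.9, 209 ± 8.67 and 221 ± 0.268 CPM over the doses (adjusted p of 0.82 and 0.757 against 0 µM), and the cell death inhibitor Bcl2 at 16.1 ± 1.82, 18.1 ± 0.311 and 15.95 ± 1.75 CPM (0.425 and 0.904). The retinoblastoma gene Rb1 had 37.0 ± 5.98 CPM at 0 µM, 28.3 ± 4.21 at 2 µM (adjusted p = 0.119) and 34.2 ± 2.91 at 10 µM (adjusted p = 0.611). RefSeq windows were at hand for 5 of the 8, and the motif was matched in Bcl2, Vegfa and Myb and not in Hif1a and Tert. Of 10 genes for proteins that bind G4 promoters, among them nucleolin, edgeR and DESeq2 called 0 in each comparison, to be read against the same shares called. Their counts at an unadjusted p under 0.05 were 4, 1 and 5, to be read against 3046, 4205 and 5223 of all 14296 tested genes.

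The profile of each member over the 8 libraries was set against those of 9717 genes whose counts averaged 100 or more. For Hras the most alike were Dkc1 (Pearson's r = 0.9949), Wdr43 (0.9928) and Coq10b (0.9918). Dkc1 had 139, 173 and 114 CPM at 0, 2 and 10 µM, the same order as Hras. For Pdgfrb they were Zbtb40 (0.9915), Agtr2 (0.9908) and Scd1 (0.9877), and Agtr2 stepped down from 14.5 to 8.14 and 5.59 CPM. Pdgfra was most like Rabgap1 (0.979), Trps1 (0.9653) and Zfp354c (0.9629), Src most like Adipor2 (0.9852), Zc3h4 (0.9817) and Zdhhc8 (0.9769), and Nras most like Trappc10 (0.9665), Ccdc86 (0.9541) and Wdr46 (0.952). Myc and Kit, which differed more between replicates than between doses, were most like Mtr (0.9782), Cpeb4 (0.9585) and Tbrg3 (0.9542), and like Supt3 (0.9256), Dgkh (0.9218) and Gpatch2l (0.9131). Between members r was highest for Hras and Nras (0.859) and lowest for Hras and Pdgfra (-0.832). The 8 points of each r share the same libraries and fall into 3 doses, so these values describe the profiles and were not tested.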

How the data were processed

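Total RNA of MEFs was measured in 8 libraries. Per the submitters' processing notes and the study's methods, the authors trimmed paired reads of strand-specific libraries with Trim Galore and cutadapt, aligned them to mm10 with STAR 2.5.2a and counted fragments per gene with featureCounts. The deposited counts are whole numbers without normalization, and the annotation behind them is not given in the sources used here. The study itself ran DESeq2.

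Differential expression was tested with the quasi-likelihood functions of edgeR 4.0.16 (glmQLFit, glmQLFTest) under R 4.3.3, after filterByExpr and TMM scaling, in a single fit of the 8 libraries on dose alone, and p-values were adjusted by Benjamini-Hochberg over 14296 genes. Thresholds were those of the study's methods. A standard error is the size of the log2 fold change over the square root of F, and 95% intervals use the total degrees of freedom of the fit. CPM are scaled by TMM. Levels per kb use exon lengths of GENCODE, which may differ from the authors' annotation. For ratios 0.5 was added to the counts, and libraries were permuted exactly, two-sided. Profiles were compared by Pearson's r of log2 CPM with a prior count of 2. All pairs of libraries within a dose differed by more than sampling noise (chi-square over degrees of freedom 3.23 to 20.2), so no libraries were merged. Floors of 3 counts cover counting error only, since PCR copies are not independent molecules.

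Promoter windows came from RefSeq, searched on both strands by letters, with matches that overlap merged. Named were all members, every partner gene called in at least 1 comparison, a fixed set of close partners, and the 3 genes most like each member. Some results of the rule are not reported here. The members and the lists of partners, targets and cell type markers were written from general knowledge with earlier results of these data known. The fits were tested on simulated counts. The alternatives were DESeq2 1.42.0, RLE, total counts, TMM over nuclear genes, no filter, at least 10 counts in every library, each library left out in turn, the replicate number as a block, fits of only the 2 groups compared, no minimum fold change, a pseudocount of 5 for ratios, and other forms of the motif. Correction for GC content, known for 96.31% of tested genes, and a window of only the 250 bases before the start were added after the data were seen. Tables and figures used Python 3.11.15 with numpy 2.4.6, pandas 2.3.3 and matplotlib 3.10.9.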

Additional observations from a re-analysis of the deposited data

How the results depend on the processing

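The fall of Pdgfrb at 10 µM was called with each library left out in turn (log2 fold change -0.63 to -0.59, 1 member called in each), but 0 members were called with total counts only (Pdgfrb -0.39, adjusted p = 0.00205) and with GC correction and the replicate block together (Pdgfrb -0.57, adjusted p = 0.00169), where it falls short of 1.5-fold. At 2 µM 0 members were called in each fit without 1 library. Between 10 and 2 µM, where the main count is 0, 1 member, Hras, was called without the filter, with DESeq2, with no minimum fold change, with GC correction and the replicate block, and in fits without replicate 1 or 2 of 0 µM, replicate 2 or 3 of 2 µM, or either 10 µM library (0 to 1 over all, Hras at -0.62 to -0.53). Partner and target genes called at 2 µM, 2 in the main fit, were 1 with total counts only, 1 with the replicate block, 1 with GC correction and the block, 4 with no minimum fold change, and 0 to 2 with a library left out, with 0 without replicate 2 or 3 of 0 µM or replicate 1 or 2 of 2 µM and 1 without replicate 3 of 2 µM. At 10 µM, 10 became 6 with the replicate block, 6 with GC correction and the block, and 6 to 12 with a library left out, the 6 being reached without replicate 2 or 3 of 0 µM, and with total counts only they were 9 (5 higher and 4 lower, against 3 and 7). Between 10 and 2 µM, 17 became 26 with no minimum fold change 13 to 17 with a library left out, and 12 with total counts only (7 higher and 5 lower, against 6 and 11).

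Signs changed only for members that were never called. At 2 µM Myc was 0.062 with total counts only, 0.0062 with GC correction, 0.0089 with GC correction and the block and -0.15 to 0.11 with a library left out, and Src was 0.021 with total counts only. At 10 µM, with total counts only, Nras was 0.105 and Pdgfra 0.21. Pdgfra was also 0.00032 with at least 10 counts in every library, 0.043 with the replicate block, 0.019 with GC correction and the block and -0.10 to 0.040 with a library left out. Kit at 10 µM was -0.020 without the filter, -0.0022 with GC correction and -0.092 to 0.10 with a library left out, and it had too few counts for the filter of 10. Myc was -0.084 to 0.30 at 10 µM and -0.077 to 0.30 between 10 and 2 µM with a library left out. The cause of these changes was not tested.

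Total counts only moved the median of all genes by more than 0.1 at 10 µM and between 10 and 2 µM, from 0.026 to 0.16 in the latter, and gave 66 calls at 2 µM (26 higher and 40 lower, against 17 and 54 of 71) and 1007 between 10 and 2 µM (923 and 84, against 561 and 227 of 788). DESeq2 called 109, 502 and 814 genes. The 4 ratio comparisons moved from their main values by less than their pooled SD in all alternatives, with -0.11 to -0.016, -0.66 to -0.53, -0.27 to -0.15 and 0.074 to 0.20 when a library was left out, and the motif counts of the members did not differ. Same-numbered 0 and 2 µM libraries deviated together with r of 0.199, 0.0845 and 0.161, while differently numbered ones gave -0.154 to 0.0584. Same-numbered libraries of 0 and 10 µM gave -0.145 and -0.105, but with 2 libraries at 10 µM their deviations from the mean mirror each other. The labels do not say whether a number stands for a shared batch, and this was not tested. The replicate block is therefore given only as an alternative. The planned search of a longer promoter window was not run. Depth limits Kit, Mycn and Lck, and the 2 libraries at 10 µM limit each comparison with that dose.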
